A study of Homo sapiens with 6 samples.

Results

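The ADAM, ADAMTS and ADAMTSL genes were followed upon EWSR1::FLI1 knockdown in a Ewing sarcoma cell line. Members were taken by symbol, as ADAM, ADAMTS or ADAMTSL followed by a number. This gave 46 of the 26364 gene symbols listed: 22 ADAM, 19 ADAMTS and 5 ADAMTSL genes. The choice was made with earlier results of these data known. RNAseq had been made in A673/TR/shEF cells, the A673 line engineered with a doxycycline-inducible shRNA against the EWSR1::FLI1 fusion transcript. Untreated cells (EWSR1::FLI1 high, 3 libraries) were compared with 3 libraries of EWSR1::FLI1 low cells, which had received doxycycline at 1 µg/mL over 72 h. Both groups carry the shRNA construct and were grown with Blasticidine and Zeocin, and doxycycline without an shRNA was not analysed here, so the drug and the knockdown cannot be told apart. The model is 1 cell line. The series' description speaks of clones and the sample titles of experiments, so the spread between libraries may be technical.

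ADAM proteins are mostly membrane-anchored metalloproteases that cut the ectodomains of growth factors, receptors and adhesion molecules off the cell surface, which is called shedding. ADAMTS proteins are secreted, carry thrombospondin repeats and act on the extracellular matrix: different members cut proteoglycans, trim procollagens or cleave von Willebrand factor. ADAMTSL proteins resemble the ADAMTS tail, lack the protease domain and bind the matrix. Where the protease is active, a zinc ion is held by 3 histidines, and a glutamate beside the first of them takes part in cutting.

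Coding sequences of this zinc site are shown for the 5 genes that rose (ADAM12, ADAM19, ADAMTS2, ADAMTS9 and ADAMTS16) and for 3 reference members, the sheddases ADAM10 and ADAM17 and the proteoglycanase ADAMTS1. Each is 33 bases, read 5′ to 3′ on the coding strand of GRCh37, and capitals mark the codons of the first histidine with the glutamate, of the second histidine, of the glycine or asparagine between the histidines, and of the third histidine.
ADAM12: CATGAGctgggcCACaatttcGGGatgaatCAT
ADAM19: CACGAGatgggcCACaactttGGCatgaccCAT
ADAMTS2: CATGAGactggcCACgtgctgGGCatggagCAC
ADAMTS9: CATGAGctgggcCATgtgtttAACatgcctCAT
ADAMTS16: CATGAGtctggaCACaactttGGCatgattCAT
ADAM10: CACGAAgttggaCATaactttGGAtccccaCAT
ADAM17: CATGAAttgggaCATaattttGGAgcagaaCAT
ADAMTS1: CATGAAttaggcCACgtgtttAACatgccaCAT
The ADAM12 site lies in 1 exon at chr10:127782628-127782660 and the ADAM19 site in 1 exon at chr5:156932742-156932774, both on the minus strand, as does the ADAM17 site at chr2:9650207-9650239. The ADAM10 site and each ADAMTS site printed here are split over 2 exons. The ADAMTS9 site lies at chr3:64636824-64636839 and chr3:64640029-64640045 on the minus strand, and the ADAMTS16 site at chr5:5191887-5191903 and chr5:5200245-5200260 on the plus strand. The others lie on the minus strand: ADAMTS2 at chr5:178581178-178581193 and chr5:178581815-178581831, ADAM10 at chr15:58920080-58920082 and chr15:58925395-58925424, and ADAMTS1 at chr21:28213462-28213484 and chr21:28214177-28214186.

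A zinc site of this form was found in 31 of the 44 members with a coding transcript. Glycine stood between the histidines in 26 of them, asparagine in 4 (ADAMTS1, ADAMTS4, ADAMTS9 and ADAMTS15) and serine in 1 (ADAMTS8). The 13 members without a match were 8 ADAM genes, among them ADAM22, ADAM23 and ADAM32, and the 5 ADAMTSL genes. ADAM5 and ADAM6, annotated as a pseudogene and a non-coding RNA, had no coding transcript to search.

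Reads on genes numbered 6980361 to 16658933 per library. Levels are FPKM, reads normalised to transcript length and sequencing depth, scaled between libraries by the authors, and per-library values are given in the order of replicates 1, 2 and 3. FLI1, whose 3′ part is in the fusion, fell from 11.3, 12.7 and 14.2 FPKM in the EWSR1::FLI1 high libraries to 2.91, 4.29 and 3.68 FPKM in the low libraries. All 7 Ewing sarcoma markers examined were lower in every EWSR1::FLI1 low library, and their summed level went from 767 to 807 FPKM down to 216 to 284 FPKM. Of the markers of other cell types, the leukocyte list summed to 7.06 to 10.3 FPKM in high and 7.62 to 20.6 FPKM in low libraries, most of it CD68, with CD14 at 0 in 1 library. The epithelial list stayed at 1.46 to 2.44 and 1.42 to 2.08 FPKM. The endothelial list went from 1.02 to 1.54 up to 7.54 to 9.70 FPKM, mainly through KDR (0.267 to 0.497 against 5.20 to 8.37 FPKM). PECAM1 was also above the high libraries in every low library, at 0.278, 0.366 and 0.348 against 0.934, 1.56 and 0.879 FPKM (adjusted p = 0.0333), while CDH5, VWF and TEK stayed at or under 0.518 FPKM. The part of other cell types in the levels below was not tested. In bulk RNA fewer cells of a type and less RNA per cell cannot be told apart. EWSR1::FLI1 low replicate 1 stood apart: its sample quality weight was 0.172, against 0.463 to 2.79 in the others, and the median level of its listed genes was 1.10 FPKM, against 0.667 to 0.847 FPKM.

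Expression of the family was concentrated in a few sheddases. ADAM9, ADAM10 and ADAM17 made up 80.2% to 81.0% of the summed FPKM of all 46 members in EWSR1::FLI1 high libraries and 73.7% to 78.0% in low libraries. The next member was ADAMTS4 in both groups. Behind it the order differed: in high cells came ADAMTS1 (6.18 FPKM), ADAM22 (3.95), ADAM15 (2.73) and ADAM19 (2.53), and in low cells ADAM19 (15.9 FPKM), ADAMTS9 (11.9), ADAM15 (5.89) and ADAMTS1 (4.13). Within the spread of the libraries ADAM15 and ADAM19 in high cells were not apart, nor were ADAM19 and ADAMTS9, or ADAM15 and ADAMTS1, in low cells. The sum over all members was 240.7 ± 10.1 FPKM in high and 372 ± 89.9 FPKM in low cells (SD, n = 3 each), and EWSR1::FLI1 low replicate 1, at 268 FPKM, was nearer the high libraries (230 to 249 FPKM) than replicates 2 and 3 were (430 and 418 FPKM). At the other end, 24 members had a mean under 0.5 FPKM, from 0.0632 to 0.481 FPKM, with at most 76 reads in any library, and were not tested.

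**Figure D1:**
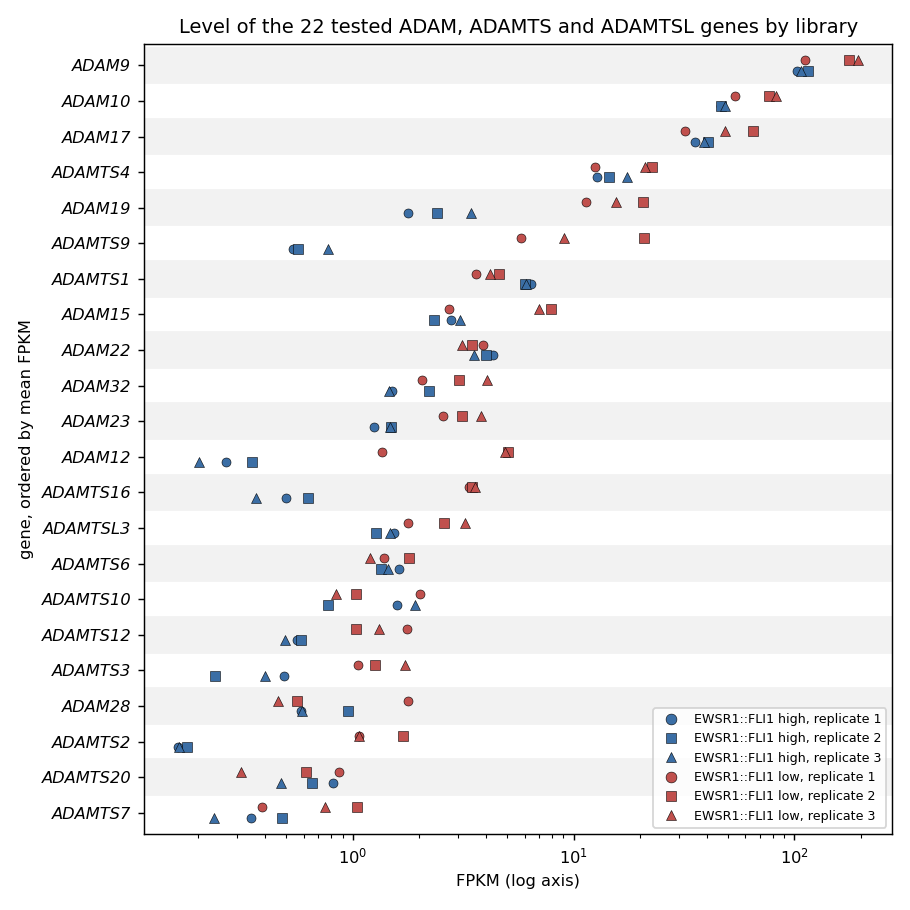
Level of the 22 tested genes in each of the 6 libraries, in FPKM on a log axis, with blue for EWSR1::FLI1 high and red for low libraries and 1 symbol per replicate number. ADAM9, ADAM10 and ADAM17 lie furthest right in every library, and the red points of ADAMTS9, ADAM19, ADAM12, ADAMTS16 and ADAMTS2 stand clear to the right of the blue ones.

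Upon EWSR1::FLI1 knockdown 5 members rose past an adjusted p of 0.01 in limma: the ADAMTS proteases ADAMTS9, ADAMTS16 and ADAMTS2 and the sheddases ADAM19 and ADAM12. Over all 15504 genes tested, 4.51% were called higher, and among the 22 tested members this was 5. No member was called lower, where 3.37% of all genes were. At an unadjusted p under 0.05 limma gave 1 lower member, ADAMTS1, and 13 higher ones. The share of all genes at that limit was not counted, so this split is not read as a result about the family. Limma-voom on recovered reads called 0 lower and 7 higher (6.1% of all genes were higher there, and 784 of 15504 were lower). The log2 fold change was above 0 for 17 of the 22, with a median of 0.54, while 45.2% of all genes tested were above 0 and their median was -0.05. ADAMTS2, ADAM12, ADAMTS3, ADAMTS16 and ADAMTS7 reached a mean of 0.5 FPKM only through the EWSR1::FLI1 low libraries, so the counts over tested members favour genes that are high there. Over all 46 members, every low library was above every high library in 15, and every low library below in 1. The same holds for 14.3% and 15.7% of the 24488 genes above 0 in any library.

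**Figure D2:**
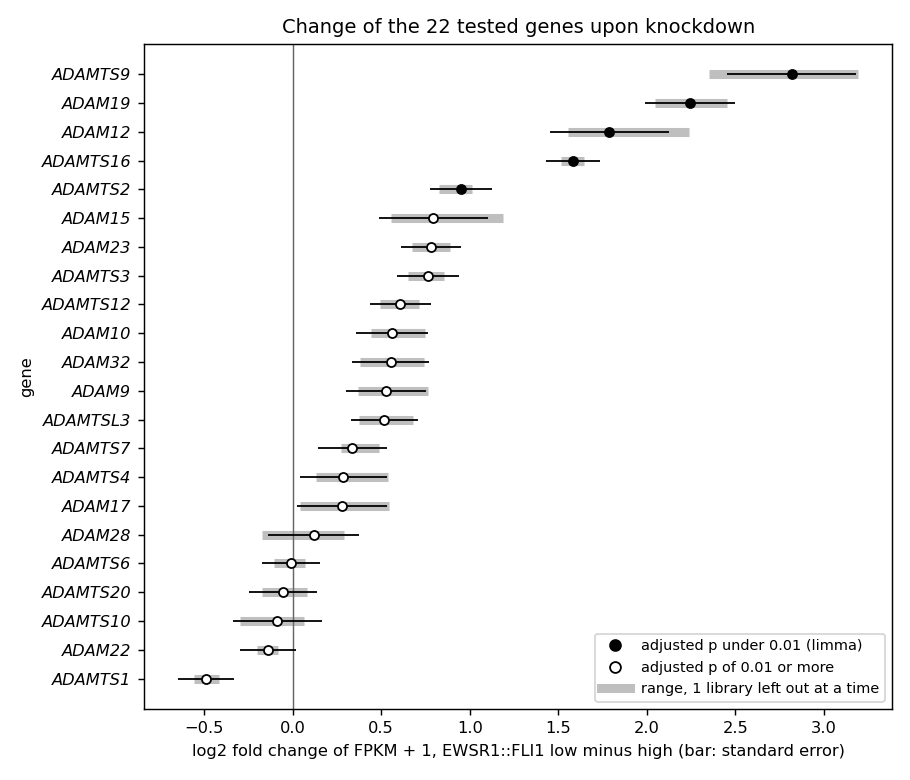
Log2 fold change of FPKM + 1, EWSR1::FLI1 low minus high, for each of the 22 tested genes; thin bars are the standard error, grey bars the range when 1 library at a time was left out, and filled points have an adjusted p under 0.01. The 5 filled points run from 0.95 (ADAMTS2) to 2.82 (ADAMTS9), and ADAMTS1 is lowest at -0.49.

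Among the 9 ADAM sheddases of somatic tissues, 2 rose, 0 fell and 7 passed the filter, all 7 with a log2 fold change above 0. Over all genes tested, 4.51% were called higher and 45.2% were above 0. ADAM12, which rose, passed the filter only through the low libraries. ADAM19 (meltrin beta), which sheds neuregulins and is known from heart and nerve development, measured 1.78, 2.40 and 3.42 FPKM in EWSR1::FLI1 high libraries and 11.3, 20.7 and 15.6 FPKM in low libraries. The groups did not overlap, and the lowest low library was well above the highest high library. The mean went from 2.53 ± 0.828 to 15.9 ± 4.69 FPKM (SD, n = 3), a ratio of 6.27, and the log2 fold change of FPKM + 1 was 2.24 (standard error, SE, 0.25) at an adjusted p of 0.000588. The gene spans chr5:156822542-157002783 and shares exon sequence with CYFIP2 on the opposite strand, and whether strand was used in counting is not given in the sources used here. ADAM12 (meltrin alpha), a sheddase of HB-EGF expressed in developing muscle and bone, was low in EWSR1::FLI1 high cells at 0.267, 0.351 and 0.202 FPKM, or 14 to 25 reads, and reached 1.36, 5.06 and 4.91 FPKM in low cells. The 3 low libraries were all above the high ones but were uneven, with replicate 1 at 0.272 times the mean of the other two. Its mean ratio was 13.8, the log2 fold change 1.79 (SE 0.34), and the adjusted p 0.00744. That call was lost in 7 of 16 alternatives. The adjusted p was 0.0211, 0.0289 and 0.0361 without high replicate 1, 2 or 3, 0.0178 and 0.0315 without low replicate 2 or 3, 0.0183 with quantile normalization and 0.0200 with no filter. Without low replicate 1 it was 6.16e-05.

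The abundant sheddases did not pass the limit. ADAM10, the protease of Notch receptors and cadherins, measured 46.3, 46.4 and 48.7 FPKM in EWSR1::FLI1 high libraries and 53.8, 76.9 and 82.6 FPKM in low libraries. Every low library was above every high one, by little in replicate 1 and by more in replicates 2 and 3. Its log2 fold change of 0.56 (SE 0.20) had an adjusted p of 0.0868. It passed 0.01 without low replicate 1 (0.00283), with sample quality weights (0.000835), with quantile normalization (0.000991) and with total-read scaling (0.00326). ADAM9, a widely expressed sheddase and the most abundant member, was at 103, 115 and 107 FPKM and then at 112, 176 and 195 FPKM, so that low replicate 1 lay within the high group. The log2 fold change was 0.53 (SE 0.22, adjusted p = 0.134). The adjusted p was 0.00232 without low replicate 1, 0.00142 with sample quality weights and 0.00280 with quantile normalization. ADAM17, the TNF-alpha converting enzyme and main sheddase of several EGFR ligands, was at 35.5, 40.5 and 38.8 FPKM against 31.9, 64.7 and 48.7 FPKM. Here low replicate 1 was the lowest of all 6 libraries. The log2 fold change was 0.28 (SE 0.26, adjusted p = 0.487), 0.54 without that library and 0.04 without low replicate 2, and the adjusted p was 0.00651 with sample quality weights. ADAM9 and ADAM17 share exon sequence with TM2D2 and IAH1, each on the opposite strand. ADAM15, a sheddase with an integrin-binding motif, was at 2.78, 2.35 and 3.05 FPKM against 2.73, 7.94 and 7.01 FPKM. Low replicate 1 again overlapped the high group, and the log2 fold change of 0.79 (SE 0.31, adjusted p = 0.105) became 1.19 without it (adjusted p = 0.00135). With sample quality weights the adjusted p of ADAM15 was 0.000411. The gene shares exon sequence with DCST1 on the same strand. Of the remaining sheddases, ADAM8 and ADAM33 were under the filter, and ADAM28 overlapped between the groups. ADAM28, given here after its values were seen, was at 0.586, 0.952 and 0.591 FPKM against 1.78, 0.558 and 0.462 FPKM. Its log2 fold change of 0.12 (adjusted p = 0.786) rested on low replicate 1, without which the ratio of means was 0.719.

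**Figure D3:**
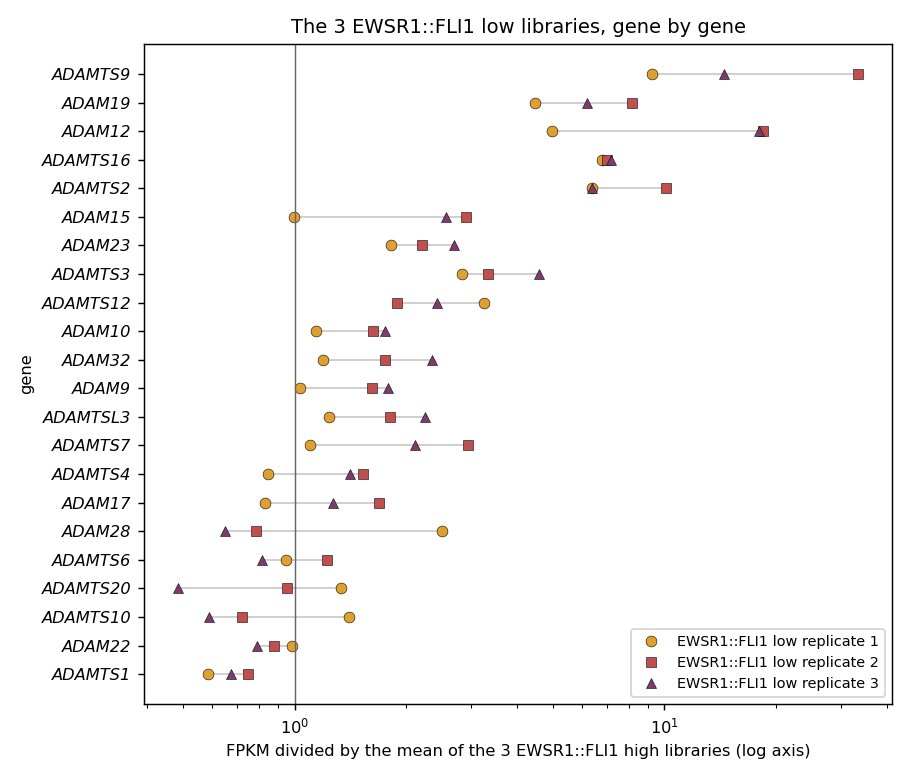
FPKM of each EWSR1::FLI1 low library divided by the mean of the 3 high libraries (log axis, 1 marks no difference), for the 22 tested genes in the order of their log2 fold change. Low replicate 1 sits left of the other 2 replicates for ADAM12, ADAM15, ADAM10, ADAM9 and ADAM17, while the 3 points of ADAMTS16 nearly coincide (6.77 to 7.16).

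The low libraries thus did not agree on the size of the change. Of the 10 tested members whose low libraries were all above the high ones, 9 had their lowest low value in replicate 1, ADAMTS12 being the exception. Among all genes tested, 2715 (17.5%) were arranged in this way, and 56.3% of these had their lowest low value in replicate 1. Among the 24 untested members the order turned: 13, or 54.2%, were highest in low replicate 1, next to 49.5% of the 8984 genes of that kind. Whether that library's quality has a part in these levels was not tested. Leaving it out raised the members called higher from 5 to 10, with ADAM9, ADAM10, ADAM15, ADAM23 and ADAMTS3 added, and over all genes tested it likewise raised the share called higher from 4.51% to 10.2%. Leaving out any of the other 5 libraries left 3, ADAM19, ADAMTS9 and ADAMTS16, and 1.98% to 3.54% of all genes.

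The 3 ADAM adhesion proteins of the nervous system lack a working protease and bind LGI proteins at synapses. ADAM23 measured 1.26, 1.49 and 1.47 FPKM in EWSR1::FLI1 high libraries and 2.57, 3.11 and 3.80 FPKM in low libraries, with no overlap. The log2 fold change was 0.78 (SE 0.17), and its adjusted p of 0.0137 missed the limit, passing it without low replicate 1 (0.00501), with sample quality weights (0.000715), with total-read scaling (0.00580) and by limma-voom (0.00533). ADAM22 overlapped between the groups (3.95 ± 0.373 against 3.49 ± 0.378 FPKM, SD, n = 3, adjusted p = 0.573), and ADAM11 was under the filter. Of the 10 listed ADAM genes of germ cells and the reproductive tract, only ADAM32 was tested. ADAM32, a sperm-associated member, was at 1.502, 2.21 and 1.47 FPKM against 2.06, 3.04 and 4.07 FPKM. Its groups overlapped, and the log2 fold change was 0.55 (SE 0.22, adjusted p = 0.108). The other 9 had means of at most 0.481 FPKM, and all 9 overlapped between the groups.

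The 7 ADAMTS proteoglycanases, which cut aggrecan and versican, gave mixed values. Of 4 tested, 1 rose, 0 fell, and 2 had a log2 fold change below 0. Over all genes tested, 4.51% were called higher and 3.37% lower. ADAMTS9, a versican-cleaving protease, gave the largest change of all members. It measured 0.534, 0.566 and 0.777 FPKM in EWSR1::FLI1 high libraries and 5.78, 20.9 and 9.06 FPKM in low libraries. The lowest low library was well above the highest high library, and low replicate 2 was well above the other low libraries. Means of 0.626 ± 0.132 and 11.9 ± 7.97 FPKM (SD, n = 3) gave a ratio of 19.1 (11.9 without low replicate 2) and a log2 fold change of 2.82 (SE 0.37) at an adjusted p of 0.00119. The gene spans chr3:64501330-64673676 on the minus strand and shares exon sequence with ADAMTS9-AS1 on the opposite strand, which was listed at 0.436, 0.192 and 0.197 FPKM in high and 0.515, 0.0931 and 0.114 FPKM in low libraries. ADAMTS4 (aggrecanase-1), the most abundant ADAMTS gene, was at 12.7, 14.5 and 17.4 FPKM against 12.6, 22.7 and 20.9 FPKM. The groups overlapped through low replicate 1, with a log2 fold change of 0.29 (SE 0.25, adjusted p = 0.456).

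ADAMTS1, a proteoglycanase also known to restrain blood vessel growth, was the 1 member lower in every EWSR1::FLI1 low library: 6.39, 6.04 and 6.11 FPKM in high and 3.60, 4.61 and 4.17 FPKM in low libraries. The high libraries were tight and the groups did not overlap, although 23.6% of all tested genes were arranged in this way. Its mean ratio was 0.668, and the log2 fold change of -0.49 (SE 0.16) had an adjusted p of 0.0588. It stayed negative, from -0.56 to -0.41, whichever library was left out. ADAMTS15, a versican-cleaving relative that was under the filter and was singled out after its values were seen, ran the other way: 0.134, 0.221 and 0.0682 FPKM (3 to 10 reads) against 0.713, 0.730 and 0.859 FPKM (34 to 76 reads). Tested with no filter, its log2 fold change was 0.63 with an adjusted p of 0.0145.

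Of the 3 procollagen N-propeptidases, which trim the amino end of fibrillar procollagens, all 3 were higher in every low library than in any high library, an arrangement seen in 14.3% of genes above 0 in any library. The tested members, ADAMTS2 and ADAMTS3, passed the filter only through the low libraries. ADAMTS2, the enzyme of procollagens I to III, measured 0.162, 0.177 and 0.164 FPKM (9 to 12 reads) in EWSR1::FLI1 high cells and 1.07, 1.69 and 1.07 FPKM (67 to 118 reads) in low cells. The high libraries were nearly equal and the groups were clearly apart. Means were 0.168 ± 0.00843 and 1.28 ± 0.359 FPKM (SD, n = 3), and the log2 fold change was 0.95 (SE 0.17) at an adjusted p of 0.00654. The call was lost in 6 of 15 alternatives: the adjusted p was 0.0304, 0.0322 and 0.0323 without high replicate 1, 2 or 3, 0.0270 and 0.0128 without low replicate 2 or 3, and 0.0116 with quantile normalization. ADAMTS3, which also activates VEGF-C, was at 0.491, 0.237 and 0.399 FPKM against 1.06, 1.26 and 1.72 FPKM. There was no overlap, and the log2 fold change was 0.76 (SE 0.18, adjusted p = 0.0184). The adjusted p was 0.00851 without low replicate 1, 0.00192 with sample quality weights and 0.00379 by limma-voom. ADAMTS14 stayed under the filter, at 0.134 ± 0.0511 and 0.259 ± 0.0409 FPKM (SD, n = 3).

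ADAMTS16 had the most even response. This protease, known from kidney and gonad development, measured 0.498, 0.631 and 0.363 FPKM (14 to 26 reads) in EWSR1::FLI1 high libraries and 3.37, 3.48 and 3.56 FPKM (142 to 276 reads) in low libraries. The 3 low libraries were almost the same, low replicate 1 included. The mean ratio was 6.98, and the log2 fold change of 1.58 (SE 0.15) gave an adjusted p of 0.000303, the smallest among the members. ADAMTS12, which cleaves cartilage oligomeric matrix protein (COMP), was at 0.558, 0.583 and 0.495 FPKM against 1.77, 1.03 and 1.32 FPKM. The groups did not overlap, and low replicate 1 was here the highest, with a log2 fold change of 0.61 (SE 0.17, adjusted p = 0.0383). ADAMTS6 and ADAMTS10, of the fibrillin-linked branch, were tested and overlapped between the groups. ADAMTS13, the protease of von Willebrand factor, was under the filter at a mean of 0.155 FPKM over the 6 libraries. Of the 5 ADAMTSL genes only ADAMTSL3 (punctin-2) was tested. It was at 1.54, 1.28 and 1.48 FPKM against 1.77, 2.59 and 3.23 FPKM, without overlap, and the log2 fold change was 0.52 (SE 0.19, adjusted p = 0.0875). Its adjusted p passed 0.01 only with sample quality weights (0.00535).

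**Figure D4:**
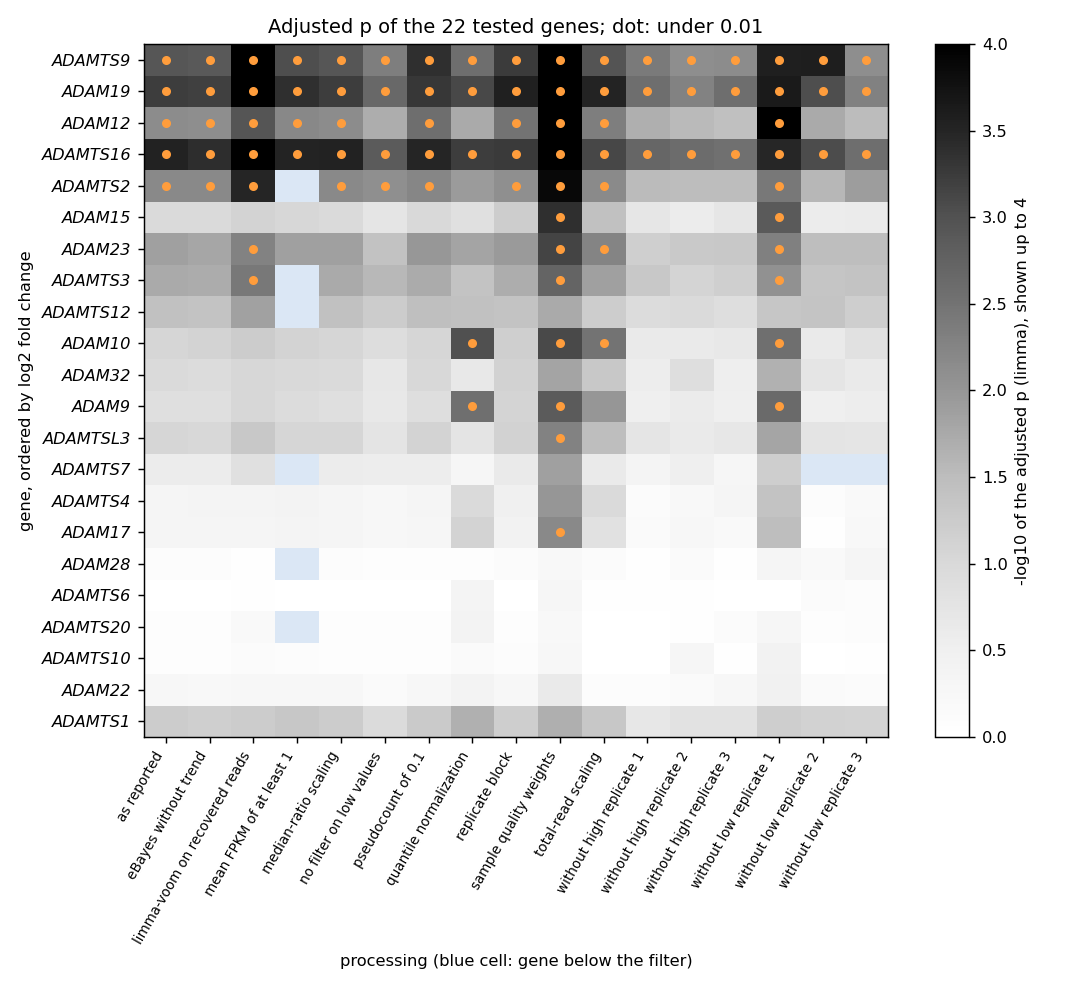
Adjusted p of each tested gene (rows, ordered by log2 fold change) as reported and under 16 other ways of processing the values (columns), shaded by -log10 of the adjusted p, with a dot where it is under 0.01 and blue where the gene fell below the filter. The rows of ADAMTS9, ADAM19 and ADAMTS16 carry a dot in every column, those of ADAM12 and ADAMTS2 do not, and the columns with sample quality weights and without low replicate 1 carry the most dots (12 and 10), where 16.0% and 10.2% of all genes tested were called higher.

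Zinc sites of both main forms were found among the genes that rose. Among tested members, 12 of 15 with glycine had a log2 fold change above 0 and 4 were called (ADAM12, ADAM19, ADAMTS2 and ADAMTS16, all but ADAM19 having passed the filter through the low libraries alone), beside 45.2% and 4.51% of all genes tested. With asparagine it was 2 of 3, and 1 was called (ADAMTS9), although ADAMTS1 carries the same residue and was lower. Of the 4 tested members without a site, 3 were above 0 and 0 were called. Promoters were searched for GGAAGGAA, a pair of the GGAA repeats that EWSR1::FLI1 is known to bind, on both strands in the 250 bases before the RefSeq gene start (GRCh38.p14). It was present in 1 of 30 member promoters, that of ADAM10, and in 3.06% of all 35116 promoters. The 3 promoters of called members found in the table held none, which says only that these letters are not in that window.

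Genes that inhibit, mature, escort or feed these proteases were read from 9 lists, 38 genes in all. Of the 29 tested, 7 rose (TIMP2, TSPAN5, VCAN, COL1A1, COL1A2, COL3A1 and FBN1) and 0 fell. At an unadjusted p under 0.05 limma gave 1 lower gene, the EGFR ligand EGF, and 16 higher ones, a limit at which all genes were not counted. Limma-voom called 7 higher and 0 lower, where 6.1% of all genes were called higher and 784 of 15504 lower. A log2 fold change above 0 was seen in 24 of the 29, with a median of 0.66, beside the 45.2% above 0 and the 4.51% called higher over all genes tested.

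The tissue inhibitors of metalloproteinases block ADAM and ADAMTS proteases to differing degrees. TIMP2 measured 14.0, 12.7 and 16.0 FPKM in EWSR1::FLI1 high libraries and 36.6, 39.5 and 46.1 FPKM in low libraries. The log2 fold change was 1.45 (SE 0.18, adjusted p = 0.00107; 0.0120 without high replicate 2). TIMP1, the most abundant of them, was at 71.5, 77.3 and 73.1 FPKM against 95.3, 198 and 146 FPKM, without overlap but short of the limit (adjusted p = 0.0370). It passed without low replicate 1 (0.00100), with sample quality weights (0.000121), with quantile normalization (0.00367) and with total-read scaling (0.00515). TIMP3, the main inhibitor of ADAMTS proteases and of ADAM17 and named here after its values were seen, measured 27.3, 21.7 and 31.3 FPKM against 39.2, 23.9 and 13.1 FPKM and overlapped between the groups (adjusted p = 0.753).

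The maturation and escort proteins gave 1 call. TSPAN5, a tetraspanin that brings ADAM10 to the cell surface, was at 14.6, 14.4 and 12.7 FPKM against 35.0, 29.7 and 32.9 FPKM. Its low libraries were close together and all above the high ones, with a log2 fold change of 1.17 (SE 0.17, adjusted p = 0.00232). The adjusted p was 0.0163, 0.0187 and 0.0221 without high replicate 1, 2 or 3. Of the 5 tested tetraspanins of this list, 4 had a log2 fold change above 0 and 1 below. The latter was TSPAN33, named after its values were seen and lower in every low library (-0.37, adjusted p = 0.156). FRMD8, which stabilises the iRhom partners of ADAM17, was at 3.66, 3.48 and 3.99 FPKM against 4.80, 9.39 and 10.4 FPKM, an adjusted p of 0.0365 that became 0.000844 without low replicate 1. FRMD8 also passed 0.01 with sample quality weights (0.000188) and with total-read scaling (0.00683). FURIN, which removes the propeptides of ADAM and ADAMTS zymogens, overlapped between the groups (adjusted p = 0.271, or 0.00232 with sample quality weights). B3GLCT, a glycosyltransferase of thrombospondin repeats, overlapped as well (adjusted p = 0.516). POFUT2 of the same list, named after its values were seen, did not overlap. It was at 3.20, 2.94 and 3.21 FPKM against 4.94, 5.64 and 5.92 FPKM (adjusted p = 0.0186). HBEGF, an EGFR ligand released by ADAM12 and ADAM17, was at 10.7, 17.2 and 16.1 FPKM against 21.5, 125.6 and 55.2 FPKM. The low libraries were above the high ones and far apart from each other, and the adjusted p was 0.0410, or 0.00145 without low replicate 1. HBEGF also passed 0.01 with sample quality weights (0.000153) and with a replicate block (0.00562).

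Of 6 tested genes of the matrix lists (proteoglycans, fibrillar procollagens and fibrillins), 5 rose, beside 4.51% of all genes tested. VCAN (versican), a substrate of ADAMTS1, ADAMTS4 and ADAMTS9, measured 0.967, 0.677 and 0.686 FPKM in EWSR1::FLI1 high libraries and 26.2, 8.31 and 8.55 FPKM in low libraries. In contrast with ADAMTS9, low replicate 1 was the highest of the low libraries, and the log2 fold change was 2.92 (SE 0.37, adjusted p = 0.00112). ACAN, BCAN and NCAN, the other proteoglycan substrates, were under the filter. COL3A1, a fibrillar procollagen trimmed by ADAMTS2, was at 23.9, 20.2 and 21.3 FPKM against 262.0, 191 and 183 FPKM, a log2 fold change of 3.21 (SE 0.20, adjusted p = 4.53e-05). COL1A2 (log2 fold change 3.99, adjusted p = 5.03e-05) and COL1A1 (2.18, adjusted p = 0.000420) rose as well, and all 3 were highest in low replicate 1. FBN1 (fibrillin-1), a scaffold to which ADAMTS-like proteins bind, went from 7.76, 6.34 and 6.57 to 55.0, 81.9 and 70.8 FPKM, a log2 fold change of 3.14 (adjusted p = 5.36e-05). FBN2 of the same list, at 28.6, 22.6 and 32.1 against 28.0, 20.9 and 24.2 FPKM, did not separate by group (adjusted p = 0.584, log2 fold change -0.18), and COL2A1 and FBN3 were under the filter. The matrix genes COL3A1, COL1A1, COL1A2, FBN1 and VCAN were called in all 16 alternatives.

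**Figure D5:**
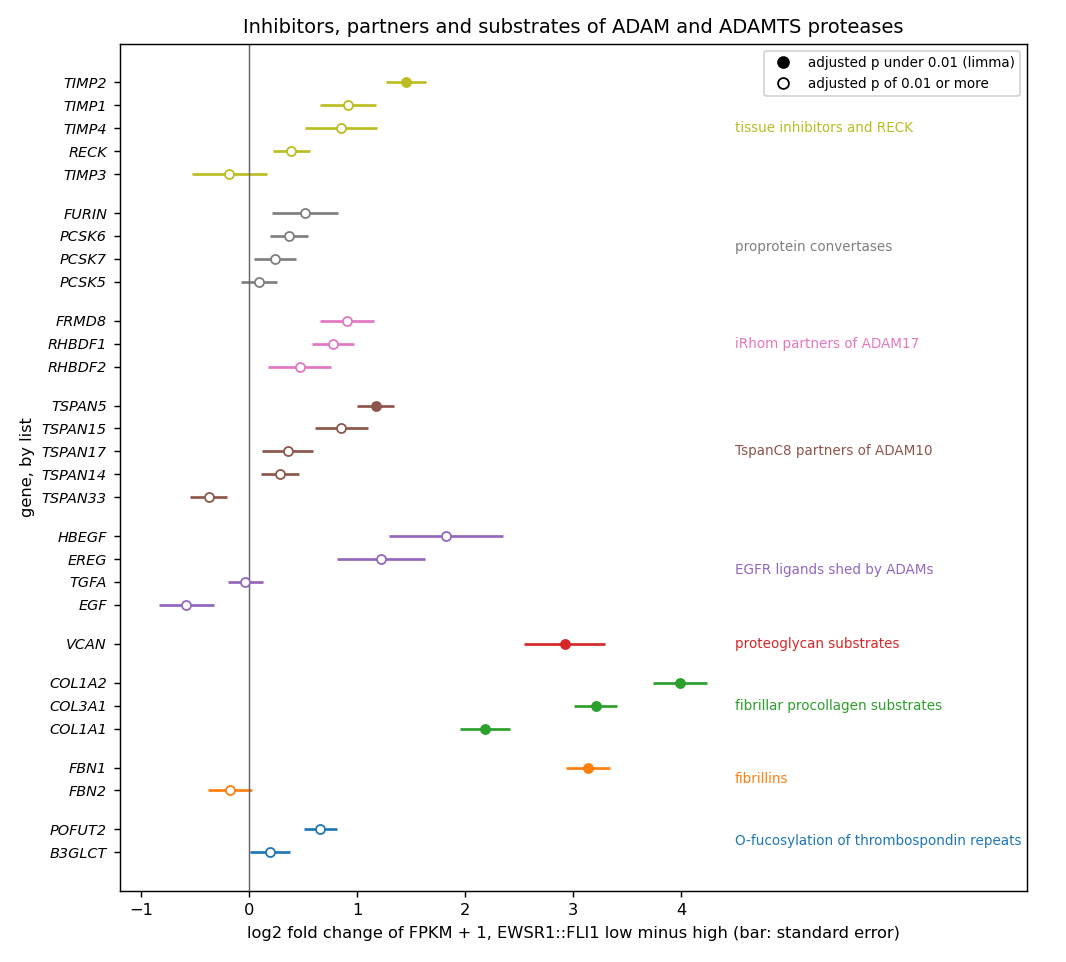
Log2 fold change of FPKM + 1, EWSR1::FLI1 low minus high, for the 29 tested inhibitors, partners and substrates, grouped and coloured by list, with bars for the standard error and filled points for an adjusted p under 0.01. The 5 filled points furthest right are the matrix genes COL1A2, COL3A1, FBN1, VCAN and COL1A1 (2.18 to 3.99), and TIMP2 and TSPAN5 are filled at 1.45 and 1.17.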

How the data were processed

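Total RNA of 6 samples was depleted of ribosomal RNA, made into ScriptSeq v2 libraries and sequenced. According to the submitters' processing notes and the study's methods, the authors aligned reads to GRCh37 with STAR 2.5.0b, estimated abundance with Cufflinks 2.2.1 and tested with DESeq2 1.6.3. The authors deposited FPKM per gene symbol and library. The authors also deposited a table holding a mean normalized count per gene (a signal), used only to recover reads, and their own log2 fold changes, standard errors, score and p-values, which were not used. The FPKM deposited by the authors were already scaled by size factors: with those means, 100% of values above 0 gave whole reads within 0.1.

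Genes with a mean of at least 0.5 FPKM (15504 of 26364) were tested with limma 3.58.1 (R 4.3.3, eBayes with trend) on log2(FPKM + 1), a scale that understates the change of low genes, with Benjamini-Hochberg adjustment over all genes tested and a call at an adjusted p under 0.01. Members and lists were chosen with earlier results of these data known. Members named by rule are those called, ADAMTS1, ADAM10, ADAM12, the 8 with the highest mean, and tested members with a log2 fold change of at least 0.5 in size. Partner genes are named by rule when called or when they have the highest mean of their list. Outside these rules, values are also given for the members ADAM22, ADAM28, ADAMTS6, ADAMTS10, ADAMTS13, ADAMTS14, ADAMTS15 and ADAMTS20. The same holds for the partner genes FBN2, POFUT2, TIMP3 and TSPAN33. Pseudocount, filter, scaling, weights and left-out libraries were varied, and total-read scaling was added after the data were seen. Gene positions are from a GENCODE annotation of GRCh37. No libraries of a group were alike within sampling noise.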

Additional observations from a re-analysis of the deposited data

How the results depend on the processing

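The 5 members called higher were 4 with no filter, 5 with quantile normalization (3 of the same genes) and 7 with total-read scaling (added after the data were seen). They were 12 with sample quality weights, 8 at an adjusted p under 0.05, and 3 to 10 when 1 library was left out, 10 of them without low replicate 1. Over all genes tested, the share called higher moved as well, from 4.51% to 1.86% with no filter, 6.40% with quantile normalization, 6.80% with total-read scaling, 16.0% with weights, 9.87% at an adjusted p under 0.05 and 1.98% to 10.2% when 1 library was left out. The 7 partner genes called higher were 11 with total-read scaling, 18 with sample quality weights, 13 at an adjusted p under 0.05, and 5 to 14 when 1 library was left out, 14 of them without low replicate 1. Partner genes called lower went from 0 to 1 with sample quality weights. Members called lower stayed at 0 in every alternative that was run at an adjusted p under 0.01. All genes called lower moved from 522 of 15504 to 297 of 24488 with no filter. They were 1000 of 15504 with quantile normalization and 2257 of 15504 with sample quality weights. With 1 library left out they ran from 157 of 15819 to 807 of 14907. Over the genes named by rule, 399 of 445 values kept their direction and side of the limit, 29 newly passed it, 17 no longer did and 0 reversed. The rule leaves out most tested members with a small change, and some of these did change sign when 1 library was left out. Their log2 fold changes ran from -0.17 to 0.29 (ADAM28), -0.30 to 0.06 (ADAMTS10), -0.17 to 0.08 (ADAMTS20) and -0.10 to 0.07 (ADAMTS6). The FPKM were already scaled, so median-ratio scaling gave the same values, and its values are among those counted as kept. No filter, a higher filter, eBayes without trend and the replicate block also leave the log2 fold change as it was. Under these settings no value could reverse. With a replicate block, which pairs libraries by number, 5 members were called higher, the same 5, and 9 partner genes, HBEGF among them (adjusted p = 0.00562). The share of all genes tested that the block called higher was 5.91%, beside 4.51% without it. Libraries of the same number correlated at 0.27, 0.09 and 0.12 in their deviations from the group means, and high replicate 3 correlated more with low replicate 2 (0.19) than with its own number, so the numbers were not taken as pairs. Depth limits the 24 untested members, and 3 reads were the least taken as detected. Over the members these reads correspond to 0.0199 to 0.113 FPKM in EWSR1::FLI1 low replicate 3, where a read is worth the least. In high replicate 3, where a read is worth the most, they correspond to 0.0401 to 0.227 FPKM. Both ranges are for counting error only.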
